A study of Mus musculus with 8 samples.

Results

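The data describe 35 mouse genes for heat shock proteins, their cochaperones and the heat shock factors, taken by symbol from a table of 55487 genes, and all 35 passed the filter on low counts that left 13312 genes for testing. The livers came from male C57Bl/6J mice of about 10 weeks, an inbred laboratory strain. Of 8 liver libraries, 4 came from mice given water by oral gavage (control) and 4 from mice given potassium sorbate (17 mg), a preservative added to foods, and whether each library is a separate mouse is not stated. The tissue was taken 4 hours after the gavage, and poly(A) RNA of whole tissue was sequenced, so fewer cells of a type and less RNA per cell cannot be told apart.

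Heat shock proteins are chaperones that hold unfolded proteins, help them to fold or pass them on for degradation. Hsp70 proteins bind exposed stretches of a client in a cycle driven by ATP, J-proteins bring them clients, nucleotide exchange factors such as Hsp110 and Bag3 release them, and Hsp90 with its cochaperones finishes the folding of kinases and nuclear receptors. Some of these genes are expressed constantly, and others are raised by the transcription factor HSF1 when unfolded proteins accumulate. In mouse liver several of the inducible genes are also known to vary over the day with body temperature and feeding. The set is named for the cytosol, but Hspa9, Trap1, Hspd1, Hspe1 and Dnaja3 encode mitochondrial chaperones and are described as a class of their own.

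Under heat shock HSF1 binds repeats of a 5-base unit whose core is GAA on one strand and TTC on the other. RefSeq promoter windows (GRCm38.p6) were found for 29 of the 35 genes, and not for Hspa8, Hsp90aa1, Hsp90ab1, Hspa9, Cryab and Hsf1. The 250 bases before each start were searched on both strands for 3 alternating units, GAANNTTCNNGAA or its reverse complement TTCNNGAANNTTC. These letters were present for 3 of the 29 genes (10.3%), namely Hspd1, Hspe1 and Dnajb6, and for 139 of all 27025 genes with a window (0.514%). The shorter forms GAANNTTC and TTCNNGAA, each its own reverse complement and both contained in the longer letters, were present for 12 of 29 (41.4%) and for 14.5% of all genes. Neither form was present for Chordc1, Hspb8, Bag3, Dnajb1 and Stip1, which had a window and are described further on. The stretches below belong to the genes with the longer letters and to inducible genes described further on that had a match. The matching letters are in capitals. A stretch that touches an annotated exon is cut to at most 30 bases. Hspd1 and Hspe1 lie head to head, and the printed stretch is the same DNA for both (chr1:55088053-55088082, plus strand, the strand of Hspe1).
Hspe1 and Hspd1: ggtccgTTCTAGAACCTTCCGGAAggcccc
Dnajb6 (chr5:29735846-29735870, plus strand): ctccgaGAATCTTCCGGAAcgctag
Hsph1 (chr5:149636356-149636375, minus strand): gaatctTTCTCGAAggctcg
Hspb1, the first of its matches (chr5:135887782-135887829, plus strand): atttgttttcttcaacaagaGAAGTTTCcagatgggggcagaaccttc
Hspa1a (chr17:34972233-34972280, minus strand): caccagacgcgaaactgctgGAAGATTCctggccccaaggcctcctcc
Hspa1b (chr17:34959315-34959362, minus strand): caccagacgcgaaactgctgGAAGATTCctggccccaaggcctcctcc
The stretches of Hspa1a and Hspa1b, neighbours on chromosome 17, are the same in every letter, 104 to 97 bases before the start for the part in capitals. A match describes letters and shows no binding. Only these exact letters in the 250 bases before the start were searched for. A gene without a match may still hold an HSF1 site elsewhere or in other letters. The 3 genes with the longer letters, Hspd1, Hspe1 and Dnajb6, had log2 fold changes of 0.20, −0.24 and 0.22 with sorbate, and none was called.

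Libraries held 15773932 to 25844731 reads. Control 2 stood apart from the other controls: on the first principal component of all tested genes (53.6% of the variance) it scored 15.4, against −49.1 to −42.1 in controls 1, 3 and 4 and 21.9 to 37.8 in the sorbate libraries. For the chaperone genes it was mostly the lowest control. It lay below the other controls in 24 of the 35 genes (68.6%) and above them in 2, where the shares over all tested genes were 33.8% and 34.1%. The counts of calls are therefore given with and without this library, as are the genes whose call or value it moves. Hepatocyte markers (Alb, Apoa1, Ttr, Apob, Cyp3a11, Tat and Pck1) summed to 68690 to 86190 CPM in the controls and 76310 to 102800 CPM with sorbate with 1 of 7 called (Cyp3a11, higher), and none was at 0, in keeping with the liver label.

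Few of the chaperone genes changed with sorbate. Of 35 genes 2 fell and 0 rose at an adjusted p of 0.05 (edgeR's quasi-likelihood test, adjusted over all 13312 genes): Hsp90aa1, the inducible Hsp90, about 1.97-fold lower, and Chordc1, an Hsp90 cochaperone, about 1.42-fold lower. The 2 falls are 5.71% of the set, beside 6.30% of all tested genes called lower and 6.14% called higher, so the share called lower is near the background. The groups did not overlap in 3 genes with lower levels (8.57%, against 8.32% of all genes) and in 4 with higher levels (11.4%, against 9.42%). The median log2 fold change was −0.19 over the 35 genes, 22 of them below 0, and −0.02 over all genes. Scaling by library size alone moved the median of all genes by 0.13 and gave 3 rises and 1 fall among the members. In that scaling 9.77% of all genes were called higher and 4.13% lower, so that 70.3% of the calls were rises in place of 49.4%. The sign of Hspa4, Dnajb1 and Fkbp4 turned with it.

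**Figure D1:**
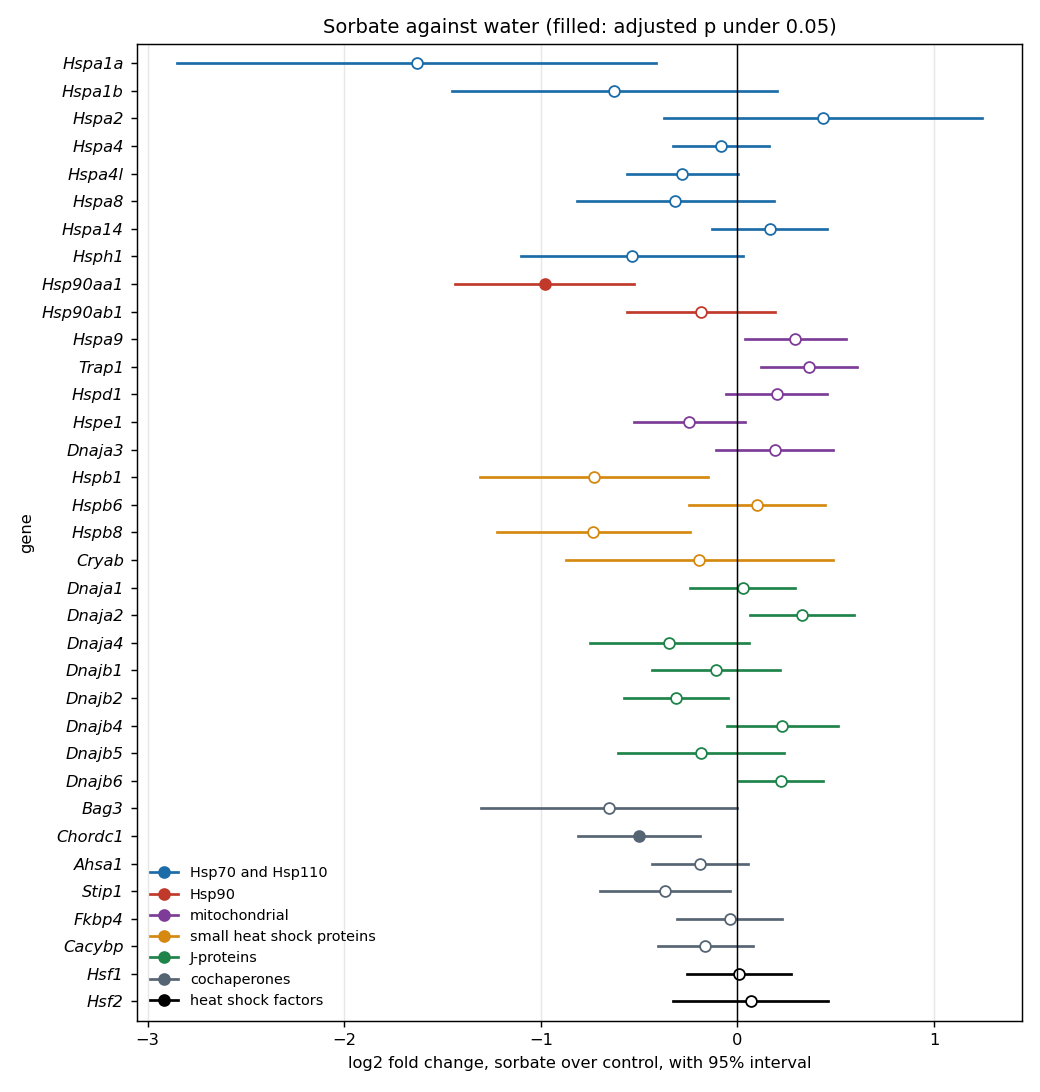
Log2 fold change of each of the 35 genes, sorbate over control (x axis), with its 95% interval as a line, coloured by class, and filled where the adjusted p was under 0.05. The filled points are Hsp90aa1 at −0.98 and Chordc1 at −0.50, and most other intervals cross 0.

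Without control 2, 9 of the 35 genes were lower and 1 was higher, which is 25.7% and 2.86% of the set, beside 14.1% and 15.1% of all 13559 genes tested in that fit. The 9 were Hsp90aa1, Chordc1, Hspb8, Bag3, Hspb1, Stip1, Hsph1, Hspa1a and Dnajb2. The higher gene was the mitochondrial Hsp90, Trap1. The median of the set was then −0.22 and that of all genes −0.00. Both genes called with 8 libraries were among the 9. Leaving out a library for its position is a choice made with the values known, so these calls describe 7 libraries and do not replace the comparison of 4 with 4.

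**Figure D2:**
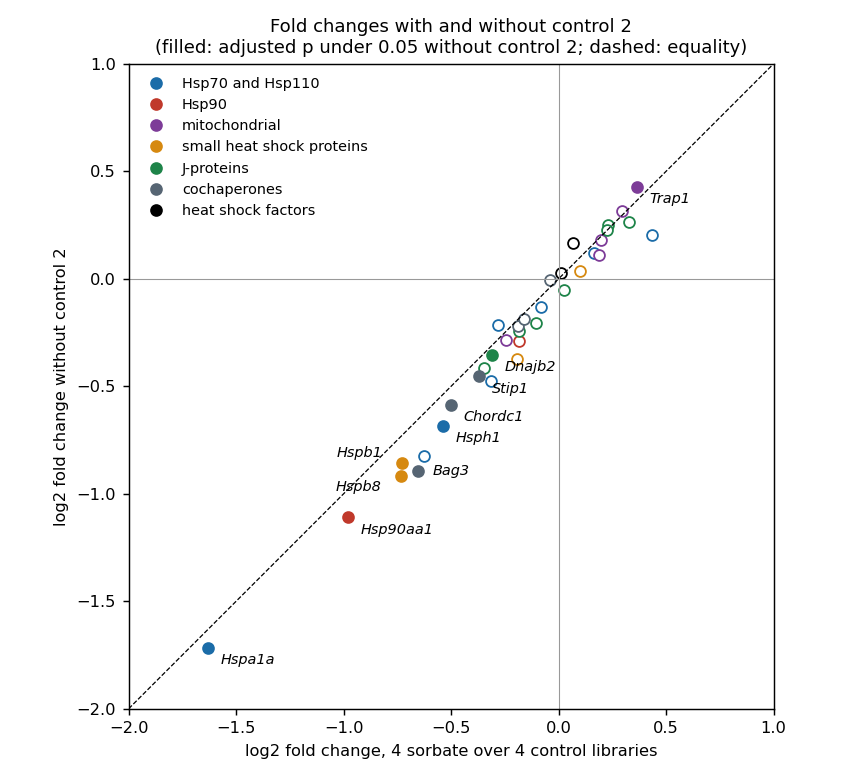
Log2 fold change of each gene with all 8 libraries (x axis) and without control 2 (y axis). The dashed line marks equal values, and filled, named points had an adjusted p under 0.05 without control 2. Most genes below 0 lie under the dashed line, such as Hspb8 at −0.73 and −0.92.

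The cytosolic Hsp90 is encoded by separate genes for an inducible and a constant form, of which Hsp90aa1 fell and Hsp90ab1 was not called. Hsp90aa1 (chromosome 12, 110690605 to 110702728) encodes the inducible Hsp90 alpha. It stood at 230.1, 159, 262 and 268 CPM in controls 1 to 4, and at 86.3, 115, 157 and 108 CPM in sorbate 1 to 4. Every control was above every sorbate library, with control 2 just above sorbate 3. The means were 230 ± 49.9 CPM with water and 117 ± 29.8 CPM in sorbate libraries (SD, n = 4 per group; log2 fold change −0.98 with SE 0.21, adjusted p = 0.01423 by edgeR). The call rested on a narrow margin: the adjusted p was 0.0501 without control 3 and 0.0524 without sorbate 4 (log2 fold changes −0.91 and −0.94), and 6.952e-04 without control 2 (−1.11).

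Hsp90ab1 (chromosome 17, 45567775 to 45573271), the constitutive Hsp90 beta, had 802, 450.2, 587 and 570.3 CPM in controls 1 to 4, and 476, 520, 583 and 539.9 CPM in sorbate 1 to 4. The sorbate libraries lay within the range of the controls, which control 1 widened upwards and control 2 downwards (log2 fold change −0.19 with SE 0.17, adjusted p = 0.4996, 95% interval −0.56 to 0.19). Without control 1 the log2 fold change was −0.02, and without control 2 it was −0.29 (adjusted p = 0.954 and 0.1525). No stretch of 50 bases in a Hsp90aa1 transcript is shared with Hsp90ab1, so reads of that length can be told apart. The CPM ratio of Hsp90aa1 to Hsp90ab1 within a library hardly depends on how libraries are scaled. It was 0.287, 0.355, 0.447 and 0.471 in controls 1 to 4. With sorbate it was 0.182, 0.221, 0.271 and 0.201. All controls were above all sorbate libraries, control 1 and sorbate 3 lying closest. The difference of the mean log2 ratios was −0.82 (exact permutation test, two-sided, p = 0.0286, the smallest that 70 arrangements of 4 and 4 allow), with an adjusted p of 0.0571 over the 2 ratios examined.

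The Hsp70 class had no call in 8 genes. Hspa8, the constitutive Hsc70 and the most abundant member, had 1432, 628, 1095 and 840.3 CPM in controls 1 to 4, against 682, 813, 888 and 827 CPM in sorbate 1 to 4. The controls ranged more widely than the sorbate libraries and enclosed them (log2 fold change −0.32 with SE 0.23, adjusted p = 0.3814). The value rested on the controls at either end: it was −0.09 without control 1, −0.47 without control 2 (adjusted p = 0.8058 and 0.06094) and 0.10 with a surrogate variable, a covariate estimated from all genes (adjusted p = 0.8375). That covariate was 0.479 in control 2, 0.062 to 0.283 with sorbate and −0.512 to −0.362 in the other controls. Hspa4, an Hsp110-type exchange factor, had 135, 111, 135 and 124 CPM in controls 1 to 4, and 124, 109, 111 and 133 CPM in sorbate 1 to 4. These ranges overlapped almost wholly, and the 95% interval of its log2 fold change was −0.33 to 0.16.

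Hspa1a and Hspa1b encode the classical inducible Hsp70 and had low counts in these libraries. Of the 50-base stretches of the Hspa1a transcript 58.8% also occur in Hspa1b, so the split of reads between the copies is uncertain. How reads that match both copies were counted was not given, so the counts may understate both copies and their sum. Of the 2967 exon bases of Hspa1a, 564 overlap Gm20481 on the other strand. Hspa1a had 1.89, 0.894, 0.629 and 1.08 CPM in controls 1 to 4, against 0.0748, 0.533, 0.595 and 0.243 CPM in sorbate 1 to 4. All controls lay above all sorbate libraries, on 89 reads in the control group and 31 with sorbate, and the difference did not pass the test (log2 fold change −1.63 with SE 0.55, adjusted p = 0.07512). Without control 2 it did pass (−1.72, adjusted p = 0.04127), and without control 1 it was −1.26 (adjusted p = 0.1962). Hspa1a also passed with DESeq2 (−1.64, adjusted p = 0.04066) and with limma-voom and quality weights (−1.78, adjusted p = 0.04385). With the surrogate variable the Hspa1a value was −1.33 (adjusted p = 0.2873). Hspa1b had 13.6, 3.91, 5.42 and 6.89 CPM in controls 1 to 4, and 3.55, 4.53, 7.50 and 3.71 CPM in sorbate 1 to 4. Here the groups overlapped (log2 fold change −0.63 with SE 0.37, adjusted p = 0.2916). The Hspa1b value was −0.17 without control 1, −0.83 without control 2 and −0.01 with the surrogate variable (adjusted p = 0.7703, 0.08068 and 0.995). With the counts of both copies summed, the log2 fold change was −0.73 (SE 0.37, adjusted p = 0.2187). The log2 ratio of the summed copies to Hspa8 differed by −0.35 between groups (exact permutation test, two-sided, p = 0.257, adjusted p = 0.257).

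Hsph1, the inducible Hsp110, had 84.8, 40.2, 66.2 and 54.3 CPM in controls 1 to 4, against 35.95, 30.8, 63.1 and 39.5 CPM in sorbate 1 to 4. Sorbate 3 lay within the range of the controls and control 2 within that of the sorbate libraries (log2 fold change −0.54 with SE 0.26, adjusted p = 0.1905). It passed without control 2 (−0.68, adjusted p = 0.0402), and was smaller without control 1 (−0.34, adjusted p = 0.4255) and with the surrogate variable (−0.20, adjusted p = 0.7511). Hspa4l, a related exchange factor, Hspa14, which works at the ribosome, and Hspa2, best known from testis, had log2 fold changes of −0.28, 0.16 and 0.44, with adjusted p from 0.171 to 0.4571. Hspa2 rested on 113 and 165 reads, and its 95% interval ran from −0.38 to 1.25. The Hspa2 value was 0.73 without control 1 and 0.21 without control 2 (adjusted p = 0.2582 and 0.6558).

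Hspb8 led the small heat shock proteins, which bind unfolding clients without ATP. Hspb8 works with Bag3 in selective autophagy. It had 434, 173, 323 and 302 CPM in controls 1 to 4, and 184, 182, 198 and 178 CPM in sorbate 1 to 4. The sorbate libraries were within a narrow band, controls 1, 3 and 4 were above it and control 2 was below it. With all libraries the change did not pass the test (log2 fold change −0.73 with SE 0.22, adjusted p = 0.05602), and without control 2 it did (log2 fold change −0.92 with SE 0.14, adjusted p = 4.777e-04). The adjusted p of 0.05602 is that of edgeR, and other methods with all 8 libraries differed. Hspb8 passed with DESeq2 (adjusted p = 0.01469) and with limma-voom and quality weights (adjusted p = 0.002787). It also passed by edgeR without a filter on low counts (adjusted p = 0.02729). It did not pass with library size alone (−0.60, adjusted p = 0.08321). Adding the surrogate variable gave −0.22 (adjusted p = 0.4813).

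Bag3 showed the same order of controls as its partner, an order also seen in Hspa8, Hsp90ab1, Hsph1, Stip1, Ahsa1, Dnajb1 and Dnajb2. The Bag3 level was 54.6, 14.8, 36.2 and 31.4 CPM in controls 1 to 4, against 19.9, 22.7, 21.8 and 22.9 CPM in sorbate 1 to 4. Control 2 was the lowest of all 8 libraries and the other controls were the 3 highest (log2 fold change −0.65 with SE 0.30, adjusted p = 0.1681; without control 2 −0.89, SE 0.17, adjusted p = 0.002104; with the surrogate variable 0.12, adjusted p = 0.7783). Without control 1 the Bag3 value was −0.34 (adjusted p = 0.432). Hspb1, which encodes Hsp25, had 11.1, 5.98, 7.64 and 9.44 CPM in controls 1 to 4, and 3.36, 4.89, 7.64 and 4.75 CPM in sorbate 1 to 4. The groups overlapped through control 2 and sorbate 3 (log2 fold change −0.73 with SE 0.26, adjusted p = 0.09249; without control 2 −0.86, adjusted p = 0.02139).

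Hspb6 and Cryab, small heat shock proteins abundant in muscle, were low. Hspb6 had 7.47, 6.26, 7.88 and 8.41 CPM in controls 1 to 4, against 9.42, 8.71, 7.32 and 6.69 CPM in sorbate 1 to 4. The groups overlapped for Hspb6 (log2 fold change 0.10 with SE 0.16, adjusted p = 0.704) and for Cryab, whose libraries ran from 1.23 to 2.66 CPM with water and from 1.22 to 2.62 CPM with sorbate. Smooth muscle markers (Acta2, Myh11, Tagln, Cnn1, Des and Actg2) summed to 10.2 to 16.7 and 7.30 to 31.4 CPM with 0 of 5 tested called. Of 5 skeletal muscle markers Ckm and Tnnt3 were at 0 reads in all libraries. Acta1 had 1 read, with sorbate, and Myh4 had 3, with water. Mylpf had 0.338 to 0.935 CPM with water and 0.411 to 0.756 CPM with sorbate, and was not called. Exon bases of Cryab are shared with Hspb2 on the other strand, and those of Hspb6 with Lin37 and Proser3 on the other strand and Gm38670 on the same strand.

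**Figure D3:**
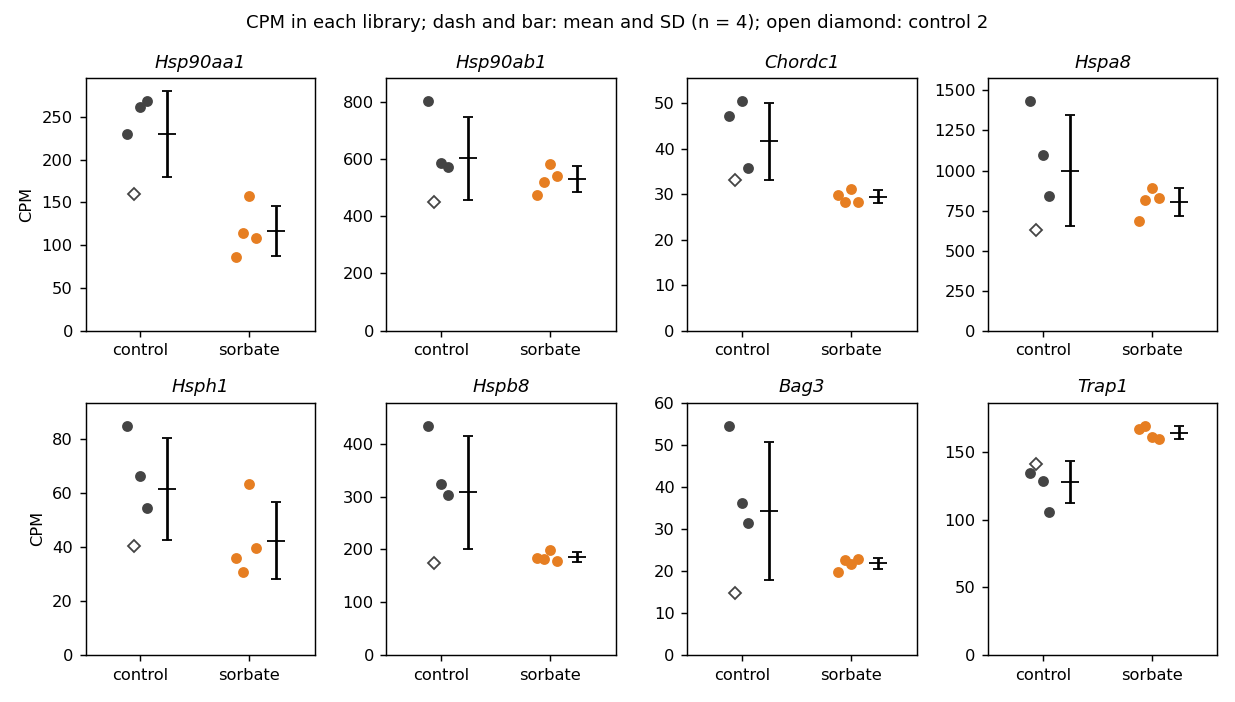
CPM of 8 of the genes in each library (y axes from 0), with the group mean and SD beside the points and control 2 as an open diamond. Hsp90aa1 and Chordc1 do not overlap between groups, and Trap1 is higher in all 4 sorbate libraries. Control 2 lies below all sorbate libraries for Hspa8, Hsp90ab1, Hspb8 and Bag3.

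The mitochondrial chaperones had a median log2 fold change of 0.20, with 4 of 5 genes above 0 and no call. Their summed level was 944 to 1118 CPM in the controls and 1163 to 1248 CPM with sorbate, a description over the class with no test. Trap1 (chromosome 16, 4039971 to 4077827), the mitochondrial Hsp90, had 135, 142, 129 and 106 CPM in controls 1 to 4, and 167, 169.8, 162 and 159.7 CPM in sorbate 1 to 4. All sorbate libraries were above all controls, control 2 included (log2 fold change 0.36 with SE 0.11, adjusted p = 0.05721; without control 2 0.43, adjusted p = 0.01484). Trap1 also passed with library size alone (0.48, adjusted p = 0.03145), with DESeq2 (0.37, adjusted p = 0.01763) and with limma-voom and quality weights (0.39, adjusted p = 0.01071). It did not pass with the surrogate variable (0.29, adjusted p = 0.2316) or without a filter on low counts (0.37, adjusted p = 0.102).

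Hspa9, the mitochondrial Hsp70 also called mortalin, had 391, 363, 357 and 314 CPM in controls 1 to 4, against 426, 424, 415 and 482 CPM in sorbate 1 to 4. The groups did not overlap, and the change missed the threshold (log2 fold change 0.30 with SE 0.12, adjusted p = 0.1208 by edgeR). Hspa9 passed narrowly with DESeq2 (adjusted p = 0.04705) and with limma-voom and quality weights (adjusted p = 0.04). It did not pass with library size alone (adjusted p = 0.0507) or with the surrogate variable (adjusted p = 0.2925). Hspd1 encodes the chaperonin Hsp60. It had 386, 321, 355 and 298 CPM in controls 1 to 4, and 380.3, 389, 395 and 396 CPM in sorbate 1 to 4, so that sorbate 1 lay below control 1 (log2 fold change 0.20 with SE 0.12, adjusted p = 0.2804). Its cofactor Hsp10 is encoded by Hspe1, whose start lies next to the stretch printed above and which had 116 ± 11.4 CPM with water and 98.2 ± 14.1 CPM in sorbate libraries (SD, n = 4 per group). The log2 fold change of Hspe1 had the opposite sign to that of Hspd1 (−0.24, SE 0.13, adjusted p = 0.2303), and both 95% intervals included 0 (−0.53 to 0.04 for Hspe1, −0.06 to 0.45 for Hspd1). The exons of Hspd1 and Hspe1 share 112 bases on opposite strands. Dnaja3, the J-protein of mitochondria, had a log2 fold change of 0.19 (adjusted p = 0.3772).

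None of the 8 cytosolic J-proteins was called, 4 lying above 0 and 4 below. Dnaja1, an abundant partner of Hsc70, had 259, 192, 261 and 235 CPM in controls 1 to 4, against 239, 231, 252 and 241 CPM in sorbate 1 to 4. Apart from the low control 2, all libraries lay close together (log2 fold change 0.03 with SE 0.12, adjusted p = 0.9083, 95% interval −0.24 to 0.29). Dnaja2, a close relative, had 90.3, 76.3, 95.97 and 99.5 CPM in controls 1 to 4, and 120.4, 103, 105 and 127 CPM in sorbate 1 to 4. The sorbate libraries were all higher than the controls (log2 fold change 0.33 with SE 0.12, adjusted p = 0.09719). Dnajb6, which suppresses the aggregation of polyglutamine proteins, had 40.1, 41.8, 43.7 and 43.2 CPM in controls 1 to 4, against 46.2, 47.7, 47.9 and 55.4 CPM in sorbate 1 to 4. These did not overlap either, with a smaller change (log2 fold change 0.22 with SE 0.10, adjusted p = 0.1509). Dnaja2 and Dnajb6 passed with library size alone (0.46 and 0.35), the scaling that lifted all genes by 0.13.

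Dnajb1, the classical Hsp40 and an HSF1 target, averaged 18.5 ± 3.52 CPM with water and 17.2 ± 1.93 CPM in sorbate libraries (SD, n = 4 per group; log2 fold change −0.11 with SE 0.15, adjusted p = 0.6655), and its sign turned with library size alone. Dnajb2, which sorts clients for degradation, had 44.8, 34.3, 40.7 and 34.9 CPM in controls 1 to 4, and 28.1, 32.3, 34.99 and 29.3 CPM in sorbate 1 to 4. Sorbate 3 reached into the controls (log2 fold change −0.31 with SE 0.12, adjusted p = 0.1133; without control 2 −0.35, adjusted p = 0.04665). Dnaja4, Dnajb4 and Dnajb5 had log2 fold changes of −0.35, 0.23 and −0.19. Of the Dnaja4 exon bases, 1581 of 3589 overlap Wdr61 on the other strand, whose reads cannot be told apart where strand was not counted.

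All 6 cochaperones had log2 fold changes below 0 with TMM scaling, and 1 was called. Chordc1 (chromosome 9, 18292125 to 18317442), which encodes the Hsp90-binding protein CHP-1, had 47.2, 33.2, 50.4 and 35.9 CPM in controls 1 to 4, against 29.9, 28.3, 31.2 and 28.4 CPM in sorbate 1 to 4. The sorbate libraries fell within 28.3 to 31.2 CPM, and the lowest control, control 2, lay just above them. The means were 41.7 ± 8.42 CPM with water and 29.4 ± 1.38 CPM in sorbate libraries (SD, n = 4 per group; log2 fold change −0.50 with SE 0.14, adjusted p = 0.04206 by edgeR). Leaving out any library other than control 2 took the adjusted p above 0.05, from 0.0523 without control 4 to 0.126 without control 3, with log2 fold changes from −0.57 to −0.40. Without control 2 it was 0.004892 (−0.59).

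Stip1, also called Hop, carries clients from Hsp70 to Hsp90. It had 72.7, 48.6, 62.5 and 60.2 CPM in controls 1 to 4, and 46.3, 37.5, 54.3 and 50.8 CPM in sorbate 1 to 4. Sorbate 3 and sorbate 4 lay above control 2 and below the other controls (log2 fold change −0.37 with SE 0.15, adjusted p = 0.1288; without control 2 −0.45, adjusted p = 0.02625). Fkbp4, the immunophilin FKBP52 of steroid receptor complexes, had 126, 125, 123 and 101 CPM in controls 1 to 4, against 98.1, 115, 131 and 117 CPM in sorbate 1 to 4. The groups overlapped (log2 fold change −0.04 with SE 0.12, adjusted p = 0.8613, 95% interval −0.31 to 0.23), and its sign turned with library size alone. Ahsa1, which speeds the ATPase of Hsp90, had 80.1, 64.3, 71.2 and 65.9 CPM in controls 1 to 4, and 56.4, 61.5, 69.5 and 59.03 CPM in sorbate 1 to 4. Only sorbate 3 was above any control (log2 fold change −0.19 with SE 0.11, adjusted p = 0.2808). Cacybp, which binds the ubiquitin ligase partner SIAH, averaged 24.2 ± 2.80 CPM with water and 21.6 ± 1.24 CPM in sorbate libraries (log2 fold change −0.16 with SE 0.11, adjusted p = 0.3507).

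Neither heat shock factor was called. Hsf1, the main stress activator, had 12.99, 12.4, 12.4 and 11.02 CPM in controls 1 to 4, against 13.8, 10.6, 12.5 and 12.1 CPM in sorbate 1 to 4. The ranges overlapped (log2 fold change 0.01 with SE 0.12, adjusted p = 0.9709), and the 95% interval of −0.26 to 0.27 bounds the difference. Hsf2, a related factor, had 13.8, 24.1, 19.5 and 24.9 CPM in controls 1 to 4, and 25.1, 20.3, 18.9 and 21.97 CPM in sorbate 1 to 4. Control 1 was the lowest library and the rest overlapped (log2 fold change 0.07 with SE 0.18, adjusted p = 0.8327). HSF1 is regulated mostly after translation, as background, so its mRNA does not measure its activity.

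Divided by exon length, the levels can be compared roughly between genes. The length was that of all annotated exons of a gene together, not of the transcript expressed, so the ranking is approximate. In CPM per kb the controls had 232 ± 80.5 for Hspa8, 201 ± 48.8 for Hsp90ab1, 158 ± 54.9 for Hspb8 and 129 ± 14.5 for Hspd1 (SD, n = 4). With sorbate the levels in CPM per kb were 187 ± 20.2 for Hspa8, 177 ± 14.8 for Hsp90ab1, 95.1 ± 4.50 for Hspb8 and 148 ± 2.73 for Hspd1. The constitutive Hspa8 and Hsp90ab1 led in both groups and their SDs overlapped in each. Hspb8 stood above Hspd1 with water, within the SD of Hspb8, and below Hspd1 with sorbate. At the low end were Hspa1a at 0.379 ± 0.184, Hspa2 at 0.533 ± 0.252 and Dnajb5 at 0.664 ± 0.0858 CPM per kb with water. The Hspa1a level may be understated, since much of its sequence is shared with Hspa1b.

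**Figure D4:**
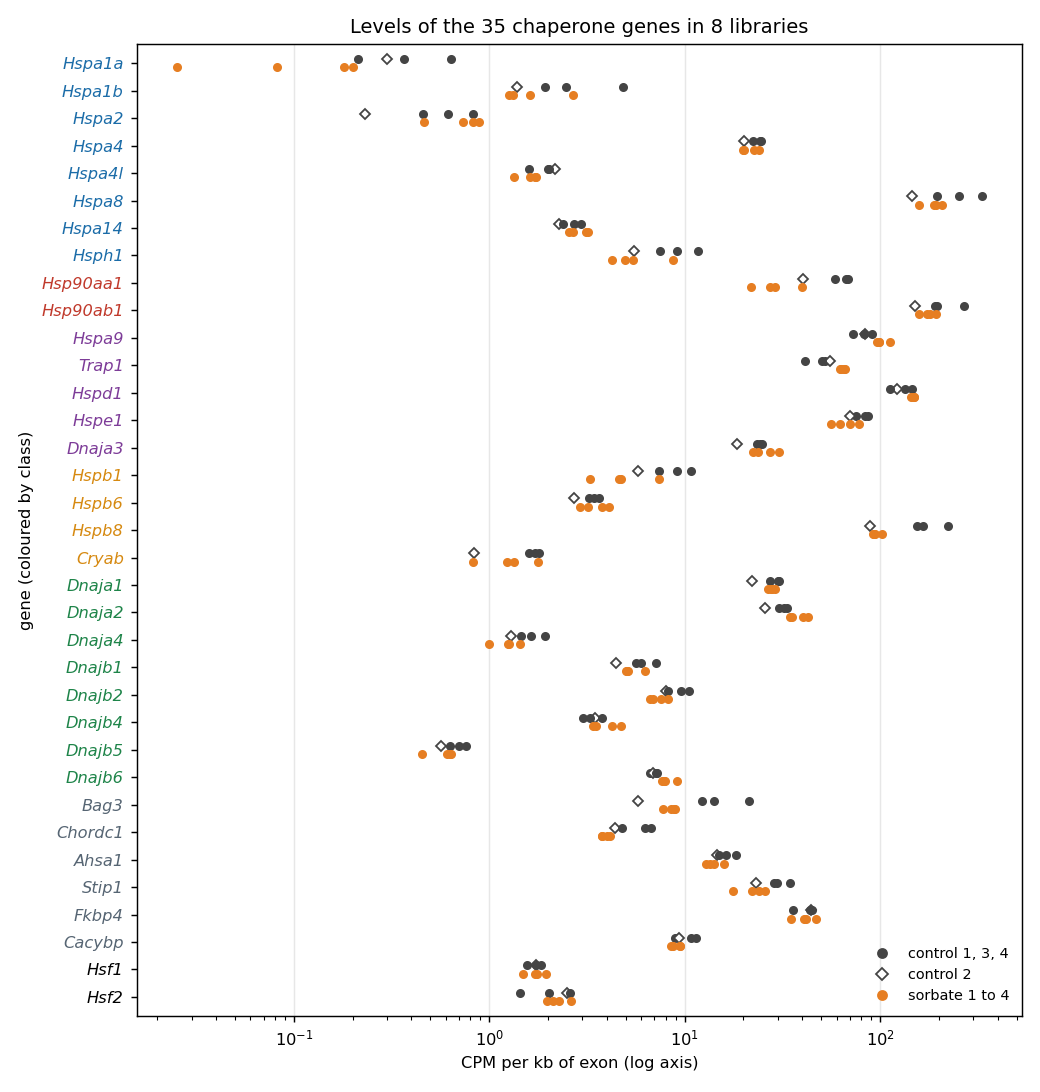
Level of each gene in each library as CPM per kb of exon (log axis), with controls above and sorbate libraries below on each line, and control 2 as an open diamond. The constitutive Hspa8 and Hsp90ab1 are highest, and the inducible Hspa1a, which shares sequence with Hspa1b, is lowest as counted.

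Chaperones outside the set were read from lists fixed with it, of which 47 genes were tested, 3 were higher (6.38%) and 4 lower (8.51%), near the 6.14% and 6.30% of all genes. Of the 8 subunits of TRiC, the cytosolic chaperonin that folds actin and tubulin, 1 was lower and 0 higher. It was Cct3, which averaged 98.5 ± 13.7 CPM with water and 72.3 ± 4.96 CPM in sorbate libraries (SD, n = 4 per group; log2 fold change −0.45 with SE 0.12, adjusted p = 0.03676). All 8 log2 fold changes were below 0 with TMM scaling, with a median of −0.14, beside −0.02 over all genes. Of 6 prefoldin subunits, which hand clients to TRiC, Pfdn2 was higher (log2 fold change 0.32 with SE 0.09, adjusted p = 0.03663) and Vbp1 lower (log2 fold change −0.49 with SE 0.14, adjusted p = 0.04727). Among 25 other cochaperones of Hsp70 and Hsp90, 1 was higher and 0 lower. It was Grpel2, an exchange factor of mitochondrial Hsp70 (log2 fold change 0.48 with SE 0.12, adjusted p = 0.0278). Of the 7 called genes of these lists, Hspa13 and Dedd2 kept their call whichever single library was left out, and Cct3, Pfdn2, Vbp1, Grpel2 and Ier5 lost it in 6 or 7 of 8 leave-outs but not without control 2.

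Of 4 other Hsp70-like genes 3 were tested (not Hspa1l), and Hspa13, which belongs to microsomes, was lower. It had 44.8, 38.5, 62.03 and 49.2 CPM in controls 1 to 4, against 31.3, 27.8, 20.8 and 23.4 CPM in sorbate 1 to 4, all below every control (log2 fold change −0.91 with SE 0.17, adjusted p = 0.008628). The 5 further genes known as HSF1 targets gave 1 rise and 1 fall. Dedd2 had 11.6, 15.7, 11.4 and 14.2 CPM in controls 1 to 4, and 30.1, 20.9, 27.7 and 23.4 CPM in sorbate 1 to 4, with every sorbate library above every control (log2 fold change 0.95 with SE 0.15, adjusted p = 0.004376). Ier5, itself a cofactor of HSF1, had 8.86, 1.90, 5.75 and 6.59 CPM in controls 1 to 4, against 2.13, 2.80, 2.29 and 2.01 CPM in sorbate 1 to 4. Control 2 was below all sorbate libraries and the other controls were above them, so the groups overlapped although the fall was called (log2 fold change −1.32 with SE 0.38, adjusted p = 0.04414). Without control 2 the Ier5 value was −1.60 (adjusted p = 2.285e-04), and with the surrogate variable it was −0.28 (adjusted p = 0.5461).

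Markers of other cell types also differed between groups, and control 2 lay on the sorbate side for several of them. Kupffer cell markers (Clec4f, Cd5l, Vsig4, Adgre1 and Timd4) summed to 160.3 to 397 CPM in the controls and 116 to 228 CPM with sorbate, with 3 of 5 lower. Neutrophil markers summed to 0.894 to 20.7 and 0.229 to 1.16 CPM (1 tested of 5, lower). Sinusoidal endothelial markers summed to 97.5 to 215 and 109.5 to 129 CPM (1 of 5 lower), bile duct markers to 51.95 to 248 and 27.5 to 42.3 CPM (2 of 4 tested lower, Spp1 and Sox9), and erythroid markers to 331 to 1373 and 251 to 373 CPM (4 of 5 lower). Most of the bile duct sum was Spp1, and Krt19 and Epcam, which were not called, had log2 fold changes of 1.03 and 0.06. The 4 lower erythroid markers were the globin genes Hbb-bs, Hbb-bt, Hba-a1 and Hba-a2. Alas2, also on the erythroid list, went the other way and was not called. It averaged 120 CPM with water and 155 CPM with sorbate (log2 fold change 0.37, adjusted p = 0.0795 by edgeR). In control 2 the sums of these 5 lists were 160.3, 0.894, 97.5, 51.95 and 331 CPM, the lowest of the controls each time. Stellate cell markers showed 0 of 5 called, at 154 to 222 and 166 to 250.2 CPM. No marker of these lists was at 0 reads in all libraries. Lymphocyte markers stayed between 0.635 and 1.74 CPM in sum with 0 of 5 tested. Of the pancreas markers, Prss2, Cpa1 and Pnlip were at 0 in all libraries. Cela1 had 11.05 to 36.9 CPM in the controls and 22.5 to 32.5 CPM with sorbate, and was not called. Ctrb1 had 0 reads in the controls and 10 with sorbate, and was not tested. The part of these cell types in the lower levels of Hsp90aa1, Chordc1, Hspb8 and Bag3 was not tested.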

How the data were processed

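The deposited table holds raw counts of reads per gene. Per the submitters' processing notes the tools were HISAT2 2.1.0, FastQC, edgeR and Subread, and the build was GRCm38. Counting settings and strand were not given in the sources used here. Of the columns, 4 matched no sample by name and were left out. No label states that libraries come from separate animals, so the spread behind the p-values is that between libraries, which may be technical. No library repeated another (chi-square of 25.1 to 241 per gene within groups).

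The 4 sorbate libraries were compared with the 4 controls. Counts were filtered with filterByExpr (minimum 10), scaled by TMM and tested with edgeR 4.0.16 in R 4.3.3 (quasi-likelihood, two-sided), Benjamini-Hochberg over all tested genes, threshold 0.05. CPM were computed on the TMM-scaled library sizes. The scripts were tested on simulated counts. Exon lengths, overlaps and positions come from GENCODE vM21. Ratios used a pseudocount of 0.5 CPM. Alternatives used DESeq2 1.42.0, limma 3.58.1 and sva 3.50.0. Among the 35 genes, values per library are printed for called genes, for the 2 most abundant of each class and for genes whose groups do not overlap, and of the other lists the genes with the lowest p are named. Other values per library were added after they were seen (Hspa1b, Hsph1, Hspb1, Bag3, Stip1, Dnajb2, Hspa13, Dedd2 and Ier5). Members and lists were chosen with earlier results of these data known.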

Additional observations from a re-analysis of the deposited data

Results flagged for a closer look

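In 4 of 70 sets of 4 libraries (35 genes in each group), 1 library lay far from the other 3, a gap that chance gives in about 1 of 20 sets. Hspa9 was 482 CPM in sorbate 4 and 415 to 426 CPM in the other sorbate libraries. Dnajb1 was 20.1 CPM in sorbate 3 and 16.0 to 16.45 CPM in the others. Dnajb5 was 2.68 CPM in sorbate 4 and 3.625 to 3.78 CPM in the others. Fkbp4 was 101 CPM in control 4 and 123 to 126 CPM in the other controls. None of the 4 was in control 2.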

How the results depend on the processing

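The count of members higher and lower was 0 and 2. It was 3 and 1 with library size alone, 2 and 4 with DESeq2, 2 and 8 with limma-voom and quality weights, and 2 and 5 at an adjusted p of 0.1. It was 0 and 0 with 1 surrogate variable and 0 and 3 without a filter on low counts. The higher members were Trap1 and Hspa9 with DESeq2 and with limma-voom. Beside Hsp90aa1 and Chordc1, both methods called Hspa1a and Hspb8 lower, and limma-voom also Hspb1, Bag3, Stip1 and Dnajb2. Over all genes limma-voom called 14.8% higher and 14.6% lower, DESeq2 7.98% and 8.35%, the threshold of 0.1 10.0% and 10.6%, the table without a filter 3.75% and 4.08%, and the surrogate variable fit 2.43% and 2.26%. Leaving out 1 library gave 0 to 1 higher and 0 to 9 lower members: 9 without control 2, 2 without sorbate 3, 0 without control 3 or sorbate 4, and 1 in the other leave-outs. Of all genes, 2.46% to 4.23% were called in either direction in the 7 leave-outs other than control 2, and 14.1% to 15.1% without control 2. Of 527 single-gene values under an alternative, 485 kept their side of the threshold, 12 lost a call (Hsp90aa1 and Chordc1), 30 gained one and 0 reversed a call. With the surrogate variable Hsp90aa1 was at −0.70 (adjusted p = 0.08392) and Chordc1 at −0.32 (adjusted p = 0.2528). The log2 ratio of Hsp90aa1 to Hsp90ab1 differed by −0.96 to −0.72 over the leave-outs, and in 6 of 8 its exact p was 0.0571, where the smallest possible was 0.0286. The cause of these moves was not tested. Depth limits Hspa1a, on 89 and 31 reads, and Hspa2, on 113 and 165 reads.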
